A study of Mus musculus with 6 samples.

Results

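The genes described here are 9 genes of alcohol dehydrogenases and of the enzymes and binding proteins that make, clear and carry retinoic acid, namely *Adh1*, *Adh7*, *Rdh10*, *Aldh1a1*, *Aldh1a2*, *Aldh1a3*, *Cyp26b1*, *Crabp1* and *Crabp2*. They were taken by gene symbol with all of their probes, 13 probes of the 45281 on the array, from 31508 gene symbols in all. The group was picked on the measured difference between parathyroid hormone (PTH) and control arrays, because *Adh7* had the largest fall of all genes on these same arrays. The difference of *Adh7* between the groups is therefore given as a description, with no test, and the differences of the other 8 genes, which come from the same comparison, are not independent support for any pattern.

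Vitamin A reaches tissues as retinol. Alcohol dehydrogenases and retinol dehydrogenases oxidize retinol to retinaldehyde in a reversible step, and retinaldehyde dehydrogenases of the ALDH1A family oxidize retinaldehyde to retinoic acid in an irreversible step. Retinoic acid is carried in the cell by CRABP proteins, acts through the RAR and RXR nuclear receptors, and is removed by CYP26 enzymes, and in the skeleton it is known for patterning the limb and for effects on chondrocytes, osteoblasts and osteoclasts.

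The bone "tubes" were shafts of tibia and femur from C57BL6 mice aged 3 months by the labels, with marrow flushed out and surface cells digested away, so that mainly osteocytes in their matrix remained. They were cultured for 24 hours without PTH (control, 3 arrays) or with 250 nM PTH (3 arrays), after a night in culture that both groups shared. Bones of several mice were pooled for each RNA preparation, and the labels do not say whether the 3 preparations of a group came from separate animals, so the p-values measure the spread between these arrays, which may be in part technical. In such bulk RNA, fewer cells of a type and less RNA per cell cannot be told apart.

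A probe was taken as above background on an array when the detection p-value of the array software was under 0.05, and was tested when this held on at least 3 of the 6 arrays. This held for 34.2% to 38.4% of the probes of an array, and the lowest linear signal of such a probe was between 119 and 139. Signals were background corrected, quantile normalized and taken to log2, and differences are PTH minus control on that scale unless the linear signal is named. A gene was called at an adjusted p under 0.05 (limma, over all 16214 probes tested) with a change of at least 1.5-fold, by its brightest probe. Of 11979 genes tested, 125 were called lower with PTH (1.04%) and 82 higher (0.685%). The osteocyte genes *Dmp1*, *Mepe* and *Phex* were above background on all 6 arrays, while *Fgf23* was above it on none and *Sost* on 3 control arrays and 1 PTH array. Markers of other cells also differed, with 2 of 2 tested red cell genes and 3 of 6 neutrophil genes called lower and 3 of 5 osteoclast genes called higher, while of 10 tested osteocyte and osteoblast genes 3 were called lower (*Mepe*, *Ibsp* and *Sp7*). At an unadjusted limma p under 0.05, 8 of these 10 were lower and 1 was higher, beside 7.39% and 7.51% of all genes. The higher 1 was *Pdpn*, listed as *Gp38* (0.70, limma adjusted p = 0.056), which was not called. Of 5 tested cartilage genes 1 was called lower (*Acan*, listed as *Agc1*) and of 10 tested fibroblast genes 1 higher (*Dcn*). *Acan* was above background on 3 control arrays and no PTH array, so it passed the filter through its control arrays alone. Of 7 tested macrophage genes none was called, and their median difference was -0.58. In 5 of them all PTH arrays were below the control arrays, beside 10.8% of all genes tested. Summed linear signals on control and PTH arrays were 8673 to 10200 and 2814 to 4013 for the red cell list, 42820 to 52000 and 28590 to 47290 for the neutrophil list, 10890 to 14030 and 14430 to 29030 for the osteoclast list, 1582 to 1846 and 1589 to 2232 for the cartilage list, 3874 to 4711 and 4717 to 7765 for the fibroblast list, and 6534 to 7919 and 5280 to 8604 for the macrophage list. These sums were neither background corrected nor normalized. The mean linear signal of an array ranged from 298 to 429 and was highest on the PTH array numbered 3. Of the 8 red cell genes listed, 7 were on the array and 3 of these were above background on no array by their brightest probe. The part of these cells in the results below was not tested.

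*Adh7* encodes the class IV alcohol dehydrogenase, an enzyme of epithelia with high activity towards retinol. Because it is the gene with the fall, the promoter that RefSeq gives for it (GRCm38.p6, chr3:138217523-138217822, plus strand, 250 bases before to 50 bases after an annotated start that lies downstream of the beginning of the RefSeq gene record) is shown, with that of *Adh1*, its neighbour on the chromosome (chr3:138277335-138277634, plus strand). Capitals mark the motif TGAGTCA, a binding motif of AP-1 factors that was chosen after the sequence had been read.

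Adh7: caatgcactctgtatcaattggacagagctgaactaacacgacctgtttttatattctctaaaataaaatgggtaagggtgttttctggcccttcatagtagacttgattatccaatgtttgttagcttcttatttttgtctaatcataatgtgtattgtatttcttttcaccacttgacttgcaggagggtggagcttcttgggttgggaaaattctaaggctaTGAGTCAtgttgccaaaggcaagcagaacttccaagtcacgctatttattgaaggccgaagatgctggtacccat

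Adh1: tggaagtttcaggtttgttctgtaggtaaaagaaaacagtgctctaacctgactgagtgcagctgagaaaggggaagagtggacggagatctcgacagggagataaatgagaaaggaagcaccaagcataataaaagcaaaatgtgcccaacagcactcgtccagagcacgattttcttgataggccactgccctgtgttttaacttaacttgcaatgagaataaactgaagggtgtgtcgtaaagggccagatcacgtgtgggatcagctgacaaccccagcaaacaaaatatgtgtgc

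The motif TGAGTCA lay at -25 to -19 from the start in *Adh7* and was not in the *Adh1* window. Read on both strands, it was present in 5.2% of the 32851 promoters of the same length in the table. Promoters of 6 of the 9 genes were in the table, *Aldh1a1* with 2 of them, and the only other match among these was in 1 of the 2 *Aldh1a1* windows, at -57 to -51 on the opposite strand. The hexamer AGGTCA of retinoic acid response elements, held by 16.3% of all promoters, was searched on both strands too. So was its variant GGTTCA, held by 10.4%. Direct repeats of these hexamers, alike or mixed, spaced by 1, 2 or 5 bases, were held by 0.0548%, 0.177% and 0.0183%. The cAMP response element TGACGTCA was held by 1.79% of promoters, and its short form CGTCA, which the full element contains, by 20.8%. None of these was in any promoter of the 6 genes. That says only that these letters are not in these windows.

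**Figure D1:**
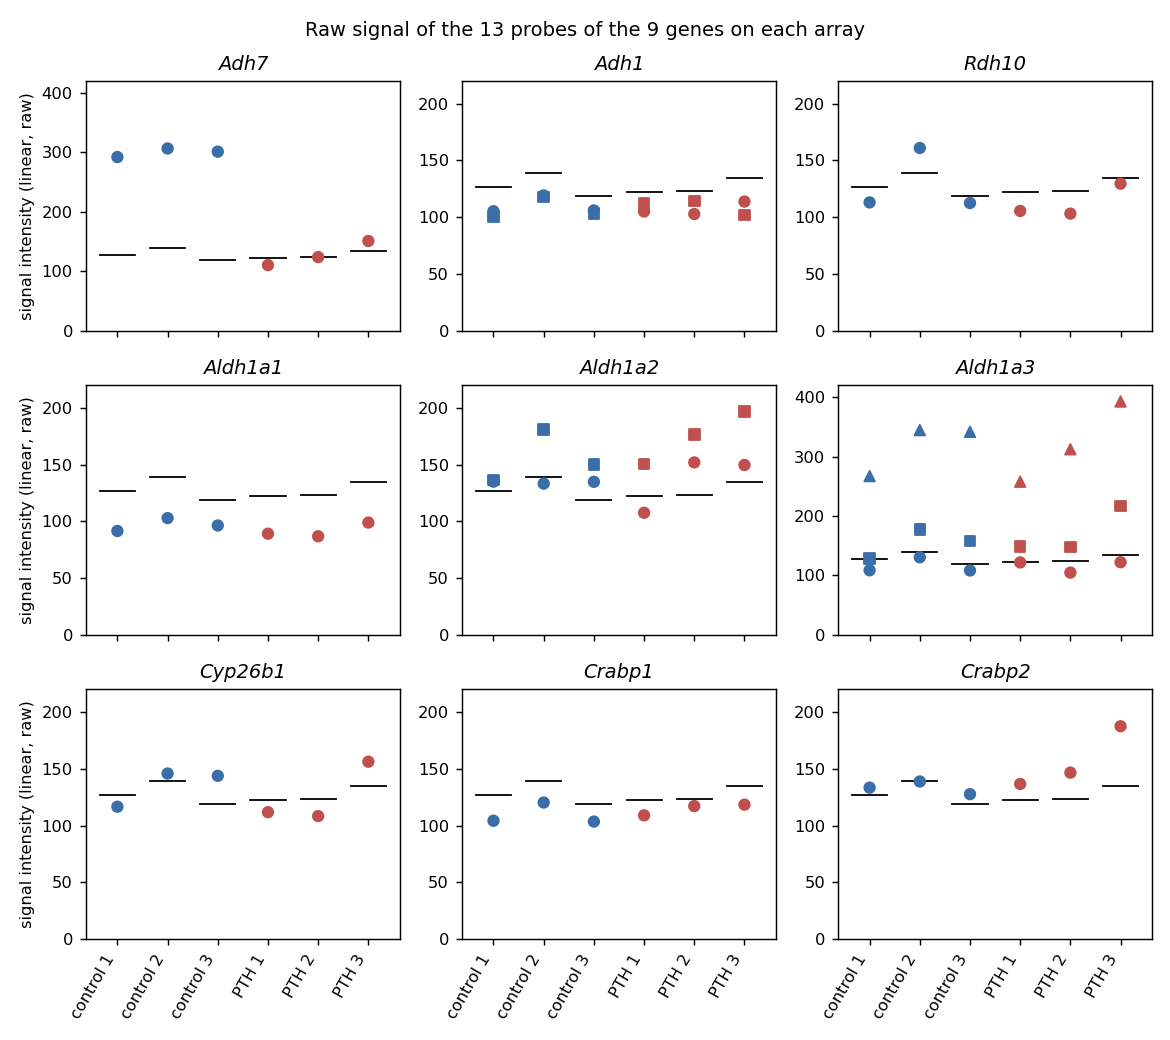
Linear signal before normalization (y axis, no unit) of each probe of the 9 genes on the 3 control (blue) and 3 PTH (red) arrays, with the lowest signal counted as above background on each array as a black line and different marker shapes for different probes of a gene. *Adh7* lay far above the line on every control array and close to it on the PTH arrays, the brightest *Aldh1a3* probe was well above it in both groups, and *Adh1*, *Aldh1a1* and *Crabp1* stayed below the line on all arrays.

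Of the 9 genes, 5 had a probe that could be tested, *Adh7*, *Aldh1a2*, *Aldh1a3*, *Cyp26b1* and *Crabp2*, and 7 of the 13 probes passed the filter. Detection on all 6 arrays was reached by a probe of *Aldh1a2* and of *Aldh1a3* only. *Adh1*, *Aldh1a1* and *Crabp1* had no probe above background on any array, and *Rdh10* was above it on 1 control array. *Adh7*, picked for its fall, is left out of the counts of calls. Of the other 4 genes tested none was called in either direction (limma), beside 1.04% of all genes tested called lower and 0.685% called higher. At an unadjusted limma p under 0.05 there was 1 of them, *Crabp2*, which was higher, where 7.39% of all genes were lower and 7.51% higher. The methods' t-test with the same fold limit called *Crabp2* higher at an unadjusted p, as it did 1.93% of all genes (2.3% lower), and none of the 4 after adjustment, where it called 0.334% of all genes lower and 0.234% higher. Nothing is read from these counts, since the group was put together on the same contrast.

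The single *Adh7* probe had a linear signal of 292, 307 and 301 on the control arrays and of 110.4, 123.9 and 151.0 on the PTH arrays. The groups were far apart, and within the PTH group the array numbered 1 was below its background limit of 122.4, the array numbered 2 only just above its limit of 123.6, and the array numbered 3 above its limit of 134.5. After normalization the log2 signal was 7.94, 7.66 and 7.71 in control tubes and 4.66, 5.07 and 5.36 with PTH, so that no PTH array came near a control array. The mean fell from 7.77 ± 0.15 (SD, n = 3) to 5.03 ± 0.35 (SD, n = 3), a log2 difference of -2.74 (SE 0.19), or 6.67-fold lower with PTH on this background-corrected scale. The next largest fall over all genes was that of *Ibsp*, bone sialoprotein, with a log2 difference of -2.01. The *Adh7* signal with PTH was near the background limit, above it on 2 of 3 arrays, and the size of its fall depended on how the background was treated. It was -1.30 with quantile normalization alone and -1.91 with an offset of 50 in place of 16, and *Adh7* then ranked 9 and 3 among the falls. With any 1 array left out the difference stayed between -2.81 and -2.58 and the rank was 1.

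**Figure D2:**
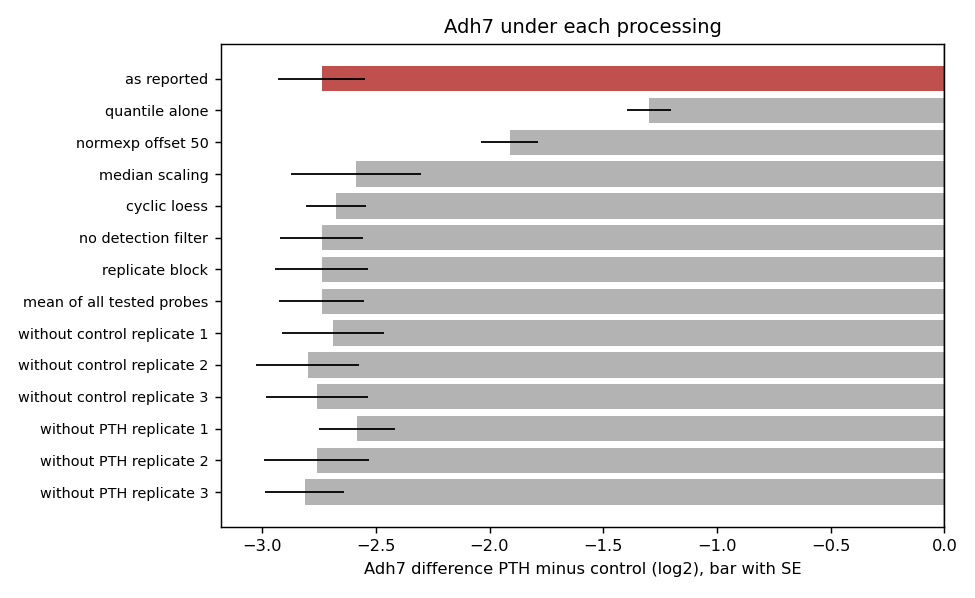
Difference of *Adh7* between PTH and control (x axis, log2, bars starting at 0, error bars SE) as reported (red) and under each alternative processing (grey), with 3 arrays a group or 1 array left out. All bars lie below 0, and those without background correction (-1.30) and with the larger offset (-1.91) are the shortest.

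*Adh1* encodes the class I alcohol dehydrogenase, which clears ethanol and excess retinol. Its 2 probes had linear signals between 100.4 and 119.2 over the 6 arrays, below the background limit on each of them, so no fold change is given. *Rdh10*, the retinol dehydrogenase on which the embryo depends for retinaldehyde, had a linear signal of 113.1, 161.0 and 112.5 in control tubes and of 105.6, 103.2 and 129.6 with PTH. It was above background on the control array numbered 2 alone, the groups overlapped and no fold change is given. Both of these enzymes are thus near or below the limit of this array in bone tubes, whatever the treatment.

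In the RefSeq order of genes on chromosome 3, *Adh7* is followed by *Adh1*, *Adh6a*, *Adh6b*, *Adh4* and *Adh5*. This is the cluster of mouse alcohol dehydrogenases, and its other measured members served to place the fall of *Adh7*, a comparison chosen after the values were seen. *Adh1*, *Adh6a* and *Adh4* were above background on no array, and *Adh6b* had no matching symbol on the array. *Adh5*, the class III enzyme that also oxidizes glutathione-bound formaldehyde, was above background on all 6 arrays with 1 of its 4 probes. It changed from 8.50 to 8.41 on the log2 scale, a difference of -0.09 (SE 0.13, 95% interval -0.38 to 0.20, limma adjusted p = 0.795), and did not pass. Of the 6 protein coding genes on either side of *Adh7*, 4 could be tested, and these were *Dapp1* (0.22), *Trmt10a* (-0.01), *Adh5* and *Metap1* (0.26). None of them was called.

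The *Aldh1a* genes encode the 3 retinaldehyde dehydrogenases that form retinoic acid. The brightest probe of *Aldh1a3* had a linear signal of 267, 344 and 341 on the control arrays and of 258, 312 and 392 with PTH. The groups overlapped on that linear scale and, after normalization, at a log2 signal of 7.73, 7.92 and 7.96 in control tubes and 7.71, 7.77 and 7.72 with PTH. The difference was -0.14 (SE 0.12, 95% interval -0.42 to 0.15, limma adjusted p = 0.677). The interval leaves room for a fall of up to 0.42 and a rise of up to 0.15 on the log2 scale. The second probe detected on every array had a difference of 0.30 (SE 0.28, limma adjusted p = 0.687), and the third was above background on none, so the probes did not give the same sign.

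The brightest probe of *Aldh1a2*, the main source of retinoic acid in the embryo, had a normalized log2 signal of 5.55, 6.27 and 5.90 in control tubes and of 6.20, 6.43 and 6.15 with PTH. Control replicate 1 was the lowest of the 6 and the groups overlapped, with a difference of 0.35 (SE 0.20, 95% interval -0.10 to 0.80, limma adjusted p = 0.467). The other probe of *Aldh1a2* was above background on 2 control and 2 PTH arrays and differed by -0.0026 (SE 0.34, limma adjusted p = 0.998). RefSeq gives *Aldh1a2* also as an older name of *Aldh1a1*, so the symbol alone does not settle which gene these probes measure. The probe listed as *Aldh1a1*, the cytosolic enzyme of liver and of many stem cells, had linear signals between 86.8 and 102.9 and was above background on no array.

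*Cyp26b1* encodes a cytochrome P450 that degrades retinoic acid and is itself known to be raised by it. Its linear signal was 116.6, 145.8 and 143.8 in control tubes and 111.7, 108.3 and 156.2 with PTH, above background on 2 control arrays and 1 PTH array. The groups overlapped, and the log2 difference was -0.34 (SE 0.32, 95% interval -1.07 to 0.39, limma adjusted p = 0.695). Its within-group SD of 0.50 on the log2 scale was higher than that of 97.9% of the genes tested, against 0.09 for *Aldh1a3*, and this probe can therefore show only large changes.

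*Crabp2* encodes the binding protein that hands retinoic acid to its receptors. Its linear signal was 133.4, 138.8 and 127.6 in control tubes and 136.6, 146.6 and 187.4 with PTH. The normalized log2 signal was 5.41, 5.05 and 5.29 in control tubes and 5.79, 5.81 and 6.02 with PTH, and on this scale the lowest PTH array exceeded the highest control array, as it did for 11.1% of all genes tested, with all PTH arrays below in another 10.8%. The difference was 0.62 (SE 0.14, 95% interval 0.29 to 0.96, limma adjusted p = 0.092), higher with PTH on 3 of 3 arrays, and it did not pass. *Crabp2* was above background on 2 control and 3 PTH arrays. The size of its difference depended on the background treatment too. It was 0.21 with quantile normalization alone (limma adjusted p = 0.226) and 0.36 with an offset of 50 (limma adjusted p = 0.121). *Crabp1*, the other cellular binding protein, had linear signals between 103.5 and 120.3 and was above background on no array.

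**Figure D3:**
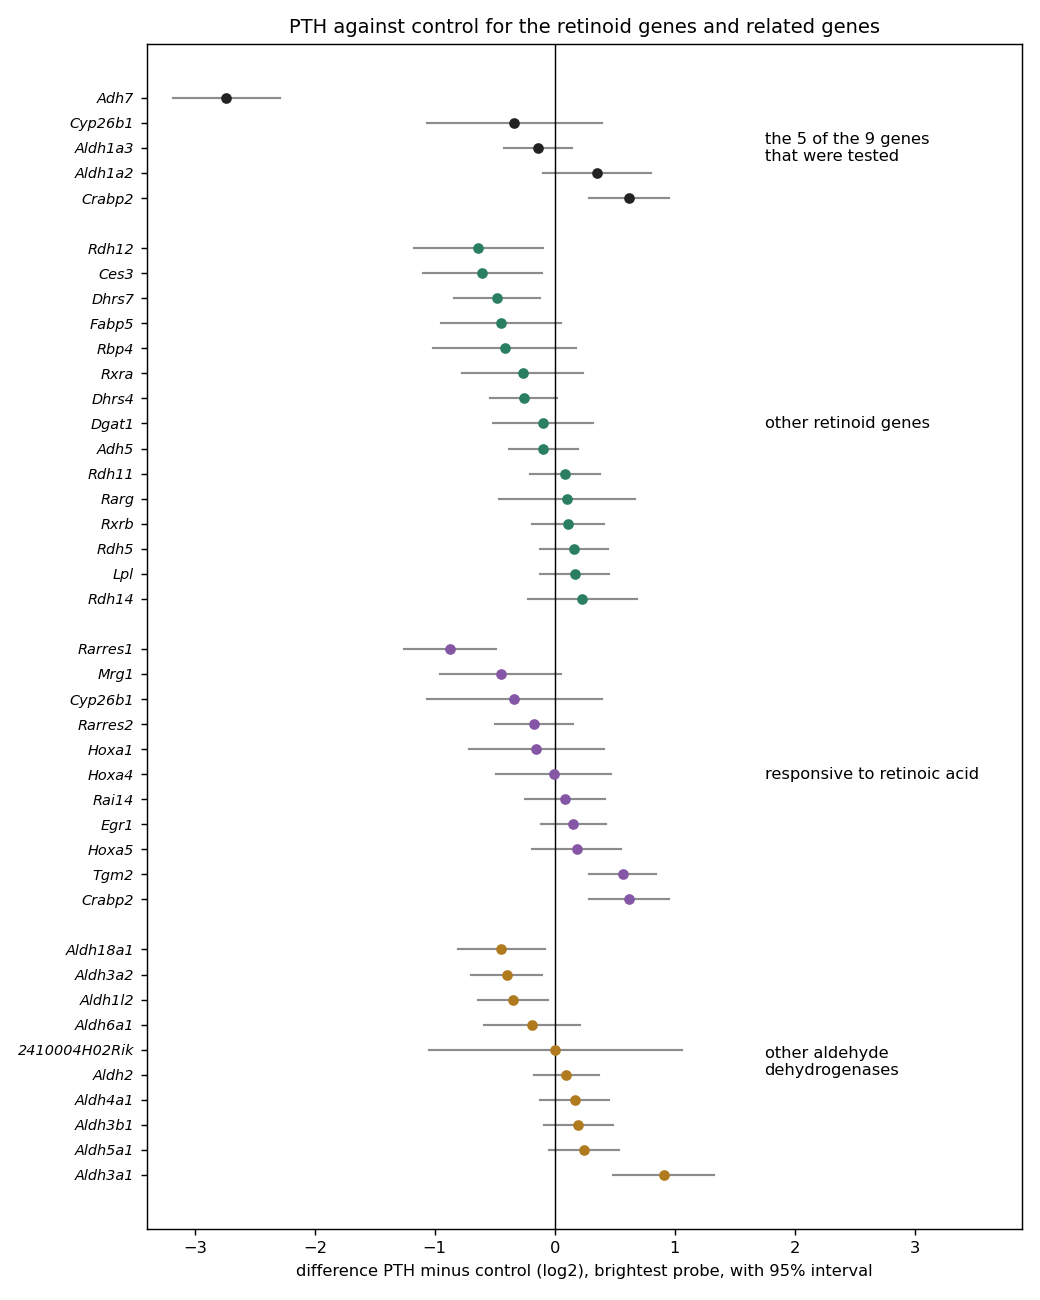
Difference between PTH and control (x axis, log2, brightest probe, lines 95% intervals from limma, 3 arrays a group) for the 5 tested genes and most of the tested genes of 3 related lists. The line of *Adh7*, which was picked for this difference, is drawn as a description and is not a test. *Adh7*, at -2.74, lies apart from the other 4 of its group, from the other retinoid genes drawn, the lowest of which is at -0.64, and from the other aldehyde dehydrogenases, which lie between -0.45 and 0.91.

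Outside the 9 genes, a list of 50 other retinoid genes was examined, with enzymes of retinol and retinaldehyde, uptake and storage genes and receptors. Of these, 47 were on the array, 20 were above background on no array by their brightest probe and 16 could be tested. None of the 16 was called in either direction (limma), beside 1.04% of all genes called lower and 0.685% called higher. At an unadjusted limma p under 0.05 there were 3 lower and 0 higher, beside 7.39% and 7.51% of all genes, and the methods' t-test called none of them either, unadjusted or adjusted, with a change of at least 1.5-fold. Their median difference was -0.10, against 0.0053 over all genes tested. The lowest difference was -0.64. The 3 lower at the unadjusted limit were *Rdh12*, a retinal reductase known from photoreceptors (-0.64, limma adjusted p = 0.258, above background on 3 control and 2 PTH arrays), *Dhrs7* and the gene listed as *Ces3*.

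Among the enzymes, *Rdh11*, a retinaldehyde reductase, differed by 0.08 (SE 0.13), and *Dhrs7*, a short-chain dehydrogenase, by -0.48 (SE 0.15, limma adjusted p = 0.205). *Dhrs3*, a retinaldehyde reductase that retinoic acid raises, was above background on no array. Among uptake, storage and binding genes, *Fabp5*, which can carry retinoic acid, differed by -0.45 (limma adjusted p = 0.401). The esterase listed as *Ces3*, a symbol that RefSeq gives as an older name of *Ces1d* and whose identity is therefore uncertain, differed by -0.60 (limma adjusted p = 0.244). *Stra6*, the retinol uptake receptor, and *Lrat*, which stores retinol as esters, were above background on no array by their brightest probe. Of the 6 receptors 3 could be tested. *Rxrb* differed by 0.11 (SE 0.13), *Rarg* by 0.10 (SE 0.24) and *Rxra* by -0.27 (SE 0.22). *Rarb*, the receptor gene that retinoic acid itself induces, was above background on 1 PTH array by its brightest probe.

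Genes known to respond to retinoic acid were taken as another list of 20, in which *Cyp26b1* and *Crabp2* also stand. Of the 12 that could be tested, 1 was called lower and none higher (limma), where 1.04% and 0.685% of all genes were. At an unadjusted limma p under 0.05 there were 1 lower and 2 higher, where 7.39% and 7.51% of all genes were. The methods' t-test called 1 lower, *Rarres1*, and 1 higher, *Crabp2*, at an unadjusted p, beside 2.3% and 1.93% of all genes, and none after adjustment. The median difference of the 12 was 0.04. The gene called was *Rarres1*, a membrane protein known to be raised by retinoids, which fell from a normalized log2 signal of 7.15 to 6.27, a difference of -0.87 (SE 0.16, limma adjusted p = 0.0489). The 3 PTH values were all under the 3 control values. The call was lost in 10 of 16 alternatives, among them 5 of the 6 fits with 1 array left out, where the adjusted p (limma) ranged from 0.0481 to 0.156. *Tgm2*, the tissue transglutaminase, had a difference of 0.57 (SE 0.12, limma adjusted p = 0.0759) and did not pass, nor did *Meis2*, listed as *Mrg1* (-0.45, limma adjusted p = 0.399).

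Other aldehyde dehydrogenases, which act on aldehydes from amino acids, lipids and ethanol, made up a comparison list of 16, of which 10 could be tested and none was called by limma, where 1.04% of all genes were called lower and 0.685% higher. At an unadjusted limma p under 0.05 there were 3 lower and 1 higher, beside 7.39% and 7.51% of all genes. The methods' t-test called 1 higher, *Aldh3a1*, at an unadjusted p, as it did 1.93% of all genes, and none after adjustment. *Aldh3a1*, an enzyme best known from cornea and stomach, had the largest difference of the list, 0.91 (SE 0.18, limma adjusted p = 0.0588), from 6.14 to 7.05. The groups did not overlap, and it passed in 5 of 16 alternatives. *Aldh18a1*, of proline synthesis, differed by -0.45 (limma adjusted p = 0.242) and *Aldh3a2*, of fatty aldehydes, by -0.40 (limma adjusted p = 0.203). *Aldh2*, the mitochondrial enzyme of ethanol clearance, differed by 0.10 (SE 0.12).

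The genes most like *Adh7* were taken as the 5 with the highest Pearson r with its normalized log2 signal over the 6 arrays, 1 probe a gene. They were *B430305P08Rik* (r = 0.997), *Mylk* (0.995), *Igl-V1* (0.995), *Emp2* (0.994) and *Gclm* (0.993). *Mylk* encodes the myosin light chain kinase, *Igl-V1* an immunoglobulin light chain segment, *Emp2* an epithelial membrane protein and *Gclm* a subunit of the enzyme that limits glutathione synthesis. Their log2 differences were -0.96, -0.76, -1.45, -0.73 and -0.63, a direction that the choice by likeness fixed. Over 2 groups that differ this much, a high r mainly says that a gene was lower on the PTH arrays, and 403 of the other 11978 genes had an r over 0.9. No p is given, since the 6 arrays share the treatment.

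**Figure D4:**
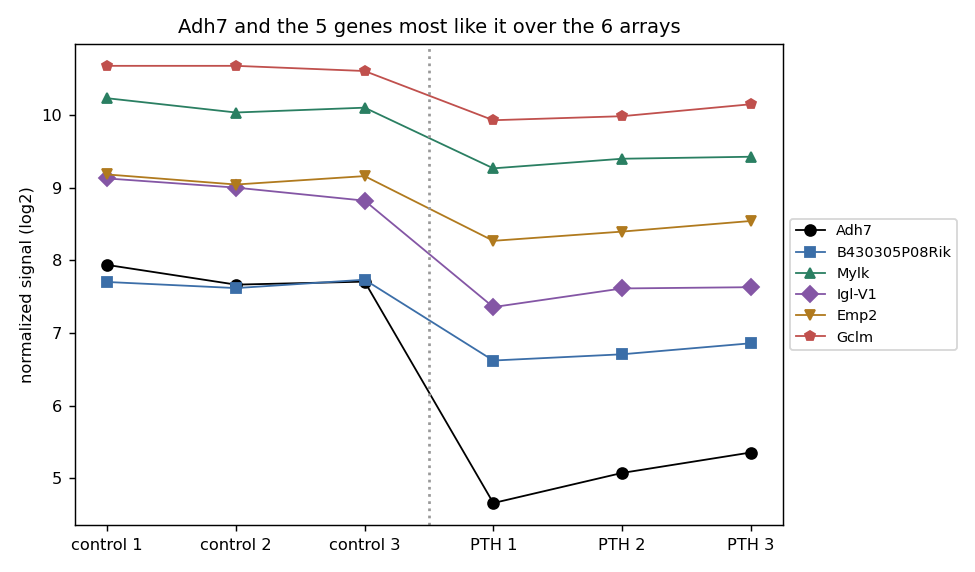
Normalized signal (y axis, log2) of *Adh7* and of the 5 genes most like it on each of the 6 arrays (x axis), with lines joining the values of a gene and a dotted line between control and PTH. All 6 genes are lower on the PTH arrays, as their choice fixed, and *Adh7* drops to between 4.66 and 5.36.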

How the data were processed

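RNA from cultured bone tubes, 3 control and 3 PTH preparations grouped by the sample titles, was hybridized to an Illumina mouse array. Per the labels the authors used GenomeStudio, with the version not given in the sources used here. The authors deposited for each probe and array a linear signal intensity, neither normalized nor background subtracted, and a detection p-value against the negative controls of the array. All columns were used. With limma 3.58.1 in R 4.3.3, background was corrected by normexp using those p-values (offset 16), arrays were quantile normalized and log2 was taken, and lmFit and eBayes compared PTH with control, with Benjamini-Hochberg adjustment. The number of arrays limits the precision. The genes, the lists and the comparison were chosen with earlier results of these data known. Named are all 9 genes, the called genes of each related list with its 3 largest differences among probes above background on all arrays, and the 5 genes most like *Adh7*. Other genes were named for their role or place after their values were seen. Older symbols were matched through RefSeq GRCm38.p6, for 8 of the 47 other retinoid genes. Some items of the lists are counted but not reported here by name. Probe sequences were not used here, nor were the methods' differential scores. On simulated data of 16214 probes, 92% of 50 probes changed by 2.5 on the log2 scale, 82% of those changed by 1.5, 58% of those changed by 1 and 38% of those changed by 0.75 were recovered, with 3 false calls. The changes were added to values already on the normalized scale, so these shares do not show what is recovered for signals at the background. Noise was drawn separately for each probe and array, without deviations shared between arrays or probes. The 3 false calls therefore do not give the rate of false calls on the real arrays. Same-numbered arrays of the 2 groups had deviations from their group means that correlated at 0.067, 0.0636 and 0.273. Pairs of unlike number gave -0.142 to -0.134 where 1 array was numbered 3, and 0.0701 and 0.073 otherwise. The signals of control 3 and PTH 3 correlated at 0.98364, and those of the other control and PTH pairs at 0.97549 to 0.9786. Whether the arrays numbered 3 shared a preparation or batch was not tested. The numbers were not taken as pairs in the main fit, and an alternative used them as a block. Alternatives were quantile normalization alone, an offset of 50, median scaling, cyclic loess, other detection filters, the replicate number as a block, the mean of all probes of a gene, the methods' t-test (named there for comparisons of 2 groups in general, while the arrays were scored in GenomeStudio) and each array left out.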

Additional observations from a re-analysis of the deposited data

How the results depend on the processing

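No alternative turned the direction of *Adh7*, *Crabp2*, *Aldh1a2* or *Cyp26b1*, where each could be fitted. Calls over all genes moved most. Lower and higher calls were 125 and 82 as reported, 25 and 19 with the replicate number as a block, 275 and 231 by the methods' t-test at an unadjusted p, and 40 and 28 by that test after Benjamini-Hochberg adjustment. With 1 array left out they were between 28 and 48 lower and between 18 and 32 higher. Lower calls were 77 under quantile normalization alone and 41 under median scaling, which shifted the median of all genes to 0.12 and raised the share of higher calls from 39.6% to 60.6%, and higher calls were 124 with a detection p under 0.01 on all 6 arrays, in place of 0.05 on 3. That filter removed *Adh7*, *Cyp26b1* and *Crabp2*, so that of the 9 genes only *Aldh1a2* and *Aldh1a3* could be tested, and neither was called. The t-test at an unadjusted p called 1 of the 9 higher, as it did 1.93% of all genes. This was *Crabp2*, which was also the 1 gene it called higher among those responsive to retinoic acid. Of these responsive genes, 0 were called lower under quantile normalization alone, median scaling, no detection filter, the replicate block and the adjusted t-test. With 1 array left out, between 0 and 1 of them were called lower, 1 only without control replicate 2. For *Rarres1* the adjusted p (limma) was 0.0935 with the replicate block. The calls on the other retinoid genes stayed at 0 in each alternative. Differences near 0 changed sign, to 0.051 for *Adh5* under median scaling, to 0.081 for *Aldh1a3*, -0.037 for *Rxrb* and -0.13 for *Rarg* with the mean of all probes, and for *Rarg* to between -0.086 and 0.33 with 1 array left out. The cause of these changes was not tested. A slide effect could not be examined, since no slide is named. Signal close to the background limits all of the 9 genes but *Aldh1a3* and, in control tubes, *Adh7*.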
